A study of Mus musculus with 3 samples.

Results

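The 10 genes Klf2, Klf4, Klf5, Tfcp2l1, Esrrb, Tbx3, Prdm14, Zfp42, Gbx2 and Nr5a2 encode transcription factors of the naive state, chosen by name from a table of 50043 gene IDs. All 10 were found under 1 Ensembl ID each and reached 1 FPKM (fragments per kilobase of gene, scaled to the reads of the library) in every library. RNA was sequenced from KH2 cells, a mouse embryonic stem cell line, that carry an inducible knockout of Pold3, a subunit of DNA polymerase delta. The groups are passages P0, P1 and P2 of these cells, with 1 library each, and all 3 carry the knockout construct. The labels give neither the agent nor the time of induction relative to P0, nor whether the passages are 1 culture. The study asks how the transcriptome differs between passages.

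Mouse embryonic stem cells in the naive state resemble the epiblast of the blastocyst before implantation. They are held there by a network of transcription factors fed by leukaemia inhibitory factor (LIF), which signals through its receptor and the coreceptor gp130 to STAT3, by Wnt signalling, which relieves repression by TCF7L1, and by low activity of the ERK kinases. Klf4, Tfcp2l1 and Gbx2 are among the known targets of STAT3, and Esrrb and Tfcp2l1 are among the known targets of repression by TCF7L1. These are examples and not full lists of the targets among the members, and the part of either pathway in the values below was not tested. The factors act together with OCT4, SOX2 and NANOG and can partly replace one another.

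Since each passage has a single library, differences could not be tested against replicates and p-values were not computed. Intervals are exact 95% intervals on reads recovered from the FPKM values, so they cover counting error between libraries only. The P0, P1 and P2 libraries were built on totals of 23213528, 18059914 and 22405670 reads. Pold3 measured 49.2, 13.0 and 11.6 FPKM. Of 7 embryonic stem cell markers all were above 1 FPKM in every library, with summed FPKM of 3315, 3148 and 3195. Of 10 fibroblast markers, 3 reached 1 FPKM, the sum over the list was 8.23, 18.5 and 21.5 FPKM, and Postn was at 0 in all libraries. Of 9 trophoblast markers 4, 8 and 8 reached 1 FPKM, with sums of 71.9, 114 and 153 FPKM, and the defining factor Cdx2 was at 0.171, 1.004 and 1.78. The marker with the highest value in that list, Tfap2c, had 25.9, 30.5 and 50.9 FPKM. Of the 8 trophoblast markers that reached 1 FPKM, 1 lay below P0 at P1 and 0 at P2. Of 8 primitive endoderm markers 3, 4 and 6 reached 1 FPKM, with sums of 148, 277 and 338 FPKM, of which Sparc made up 126, 259.8 and 320.7. The rise of that sum was carried by Sparc. Of the 6 markers that reached 1 FPKM at P2, 1 lay below P0, namely Lama1, with 15.9, 11.4 and 8.73 FPKM. The fibroblast, trophoblast and primitive endoderm sums were higher at P1 and P2 than at P0 and the embryonic stem cell sum was lower, and their part in the values below was not tested. In RNA from a whole culture, fewer cells that express a gene and less RNA per cell cannot be told apart.

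Promoter sequences are shown first for the 4 genes that were furthest below P0 at both later passages, Klf4, Tfcp2l1, Esrrb and Gbx2, and for Klf2, a paralog of Klf4 that stayed near its P0 level. Each line gives the 250 bases before the annotated start, 5′ to 3′ on the strand of the gene, from RefSeq on GRCm38.p6. The tables used here had a window for 7 of the 10 genes, 9 windows in all, and Klf5, Tbx3 and Prdm14 have none. Capitals mark 4 kinds of match on either strand, namely the KLF core CACCC, the GC box GGGCGG bound by Sp and KLF factors, the STAT site TTCNNNGAA and the TATA box TATAAA.
Klf4, chr4:55532476-55532725, minus strand: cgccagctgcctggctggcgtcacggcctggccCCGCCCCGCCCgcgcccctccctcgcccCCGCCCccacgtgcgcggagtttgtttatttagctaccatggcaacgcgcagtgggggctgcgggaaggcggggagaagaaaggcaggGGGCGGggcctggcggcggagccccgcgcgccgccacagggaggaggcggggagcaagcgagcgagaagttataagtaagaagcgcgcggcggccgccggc
Tfcp2l1, chr1:118627695-118627944, plus strand: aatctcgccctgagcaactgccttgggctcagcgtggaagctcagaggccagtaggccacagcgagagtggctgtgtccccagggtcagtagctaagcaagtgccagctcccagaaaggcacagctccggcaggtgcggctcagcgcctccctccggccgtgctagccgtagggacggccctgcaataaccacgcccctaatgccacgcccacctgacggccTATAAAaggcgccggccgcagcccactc
Esrrb first start, chr12:86360867-86361116, plus strand: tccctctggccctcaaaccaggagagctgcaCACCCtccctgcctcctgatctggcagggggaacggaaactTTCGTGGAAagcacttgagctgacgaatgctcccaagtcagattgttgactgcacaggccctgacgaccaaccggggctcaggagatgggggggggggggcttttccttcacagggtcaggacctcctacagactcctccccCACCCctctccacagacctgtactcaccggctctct
Esrrb second start, chr12:86421394-86421643, plus strand: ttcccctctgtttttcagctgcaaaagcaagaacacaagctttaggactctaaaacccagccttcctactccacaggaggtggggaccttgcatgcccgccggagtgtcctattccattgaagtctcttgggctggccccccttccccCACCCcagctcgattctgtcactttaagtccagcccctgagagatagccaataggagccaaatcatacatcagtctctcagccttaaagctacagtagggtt
Gbx2, chr1:89931177-89931426, minus strand: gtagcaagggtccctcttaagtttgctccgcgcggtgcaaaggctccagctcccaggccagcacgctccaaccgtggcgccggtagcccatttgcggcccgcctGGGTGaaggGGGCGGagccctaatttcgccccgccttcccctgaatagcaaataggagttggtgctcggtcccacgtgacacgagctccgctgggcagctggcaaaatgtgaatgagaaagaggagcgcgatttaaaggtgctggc
Klf2, chr8:72318812-72319061, plus strand: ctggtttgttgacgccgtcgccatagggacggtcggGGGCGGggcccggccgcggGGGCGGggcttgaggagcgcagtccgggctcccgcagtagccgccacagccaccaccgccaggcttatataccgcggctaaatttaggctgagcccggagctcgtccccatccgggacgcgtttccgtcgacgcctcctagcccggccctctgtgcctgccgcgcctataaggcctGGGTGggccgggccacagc

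The 4 genes furthest below P0 had no marked match in common in the exact letters searched. Other forms of these sites were not searched. The Klf4 window held 4 GC boxes, of which a pair overlaps by a base, and no KLF core in these letters. The Tfcp2l1 window held a TATA box starting 28 bases before the start and no other marked match. The Esrrb windows held 2 and 1 KLF cores, and the first also a STAT site. The Gbx2 window held 1 KLF core and 1 GC box, and the Klf2 window 1 KLF core and 2 GC boxes. Among 32841 promoter windows of the same length, 52.0% held CACCC, 32.7% GGGCGG, 7.02% TTCNNNGAA and 12.4% TATAAA. Of the 9 windows of the members, 6 held CACCC, 4 GGGCGG, 2 TATAAA and 1 TTCNNNGAA. Counted by gene, of which 2 had 2 windows each, these were 5, 4, 2 and 1 of 7. The nuclear receptor core AAGGTCA, the T-box core AGGTGTGA and the TCF core CTTTGAT were in none of the 9 windows, and were in 4.08%, 1.12% and 3.21% of all windows. The octamer ATTTGCAT was in the window of Zfp42 only, against 1.60% of all windows. The median GC content of all windows was 52.4%, and it was 74.0% for Klf4, 71.2% for Klf2, 65.2% for Tfcp2l1, 61.6% for Gbx2, 60.8% and 52.0% for Esrrb, 58.4% for Zfp42 and 43.2% and 49.6% for Nr5a2. A match is a run of letters and does not show binding.

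Among the Krüppel-like zinc finger factors, Klf4 was about 2-fold below P0 at both later passages while Klf2 and Klf5 were much nearer to it. Klf4, a reprogramming factor that links LIF and STAT3 to Sox2 and Nanog, measured 229 FPKM at P0, 116 at P1 and 113 at P2. Only P0 was high, and P1 and P2 differed little from each other. The ratio to P0 was 0.508 at P1 (interval 0.487 to 0.530) and 0.493 at P2 (interval 0.474 to 0.512), and P2 over P1 was 0.969 (interval 0.923 to 1.02). Klf2, which shares many binding sites with Klf4 and Klf5 and is restrained by ERK signalling, measured 193, 172 and 200.0 FPKM. Its ratio to P0 was 0.888 at P1 (interval 0.859 to 0.919) and 1.03 at P2 (interval 1.003 to 1.07), so P1 was the low library. Klf5, which is needed in both inner cell mass and trophectoderm, measured 116, 100.6 and 96.7 FPKM, with ratios of 0.867 and 0.834 at P1 and P2. Its reads of 9270, 6256 and 7460 share a factor with the gene length, so its intervals may be somewhat wider than the computed 0.840 to 0.896 and 0.809 to 0.860.

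Klf4 stood above Klf2 at P0 and below it at P1 and P2, while both stayed above Klf5. Per unit of length, Klf4 stood at 1.18 times Klf2 at P0 (interval 1.15 to 1.22), 0.676 times at P1 (interval 0.647 to 0.707) and 0.563 times at P2 (interval 0.541 to 0.585). Klf4 over Klf5 was 1.97, 1.15 and 1.16, and Klf2 over Klf5 was 1.67, 1.71 and 2.07. Summed, the 3 genes had 538, 389 and 409 FPKM, and Klf2 and Klf5 alone 309, 272 and 297 FPKM.

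**Figure D1:**
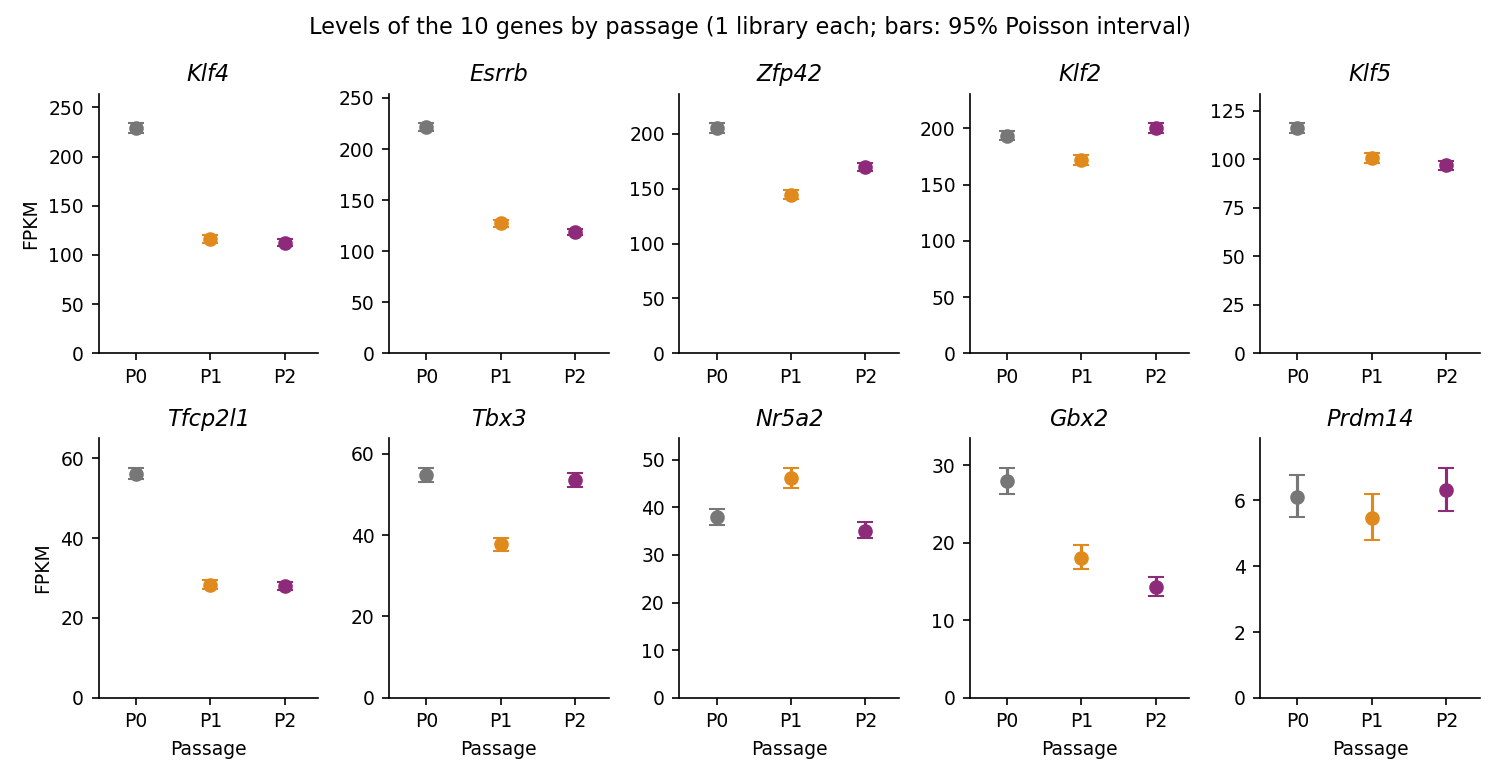
FPKM (vertical axes, each from 0) of the 10 genes at passages P0, P1 and P2 (horizontal axes), 1 library each, with panels ordered by the level at P0. Points are FPKM and bars exact 95% Poisson intervals for counting error, and Klf4, Esrrb, Tfcp2l1 and Gbx2 lie well below P0 at both later passages while Tbx3 and Zfp42 are lowest at P1.

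Of the 2 nuclear receptors, Esrrb was nearly 2-fold below P0 and Nr5a2 was not. Esrrb, an orphan receptor that can sustain self-renewal downstream of Wnt signalling and of NANOG, measured 221, 127 and 118 FPKM. P0 was the high library, and P2 lay slightly under P1, at 0.930 of it (interval 0.897 to 0.963). Its ratio to P0 was 0.575 at P1 (interval 0.558 to 0.594) and 0.535 at P2 (interval 0.519 to 0.551). Nr5a2, which binds the Oct4 gene and can take the place of Oct4 in reprogramming, measured 37.9, 46.1 and 35.1 FPKM. It was the 1 member with its highest value at P1, with ratios to P0 of 1.22 at P1 (interval 1.14 to 1.30) and 0.926 at P2 (interval 0.867 to 0.989). Esrrb over Nr5a2 was 5.83, 2.76 and 3.37 per unit of length.

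Tfcp2l1, a CP2 family factor downstream of LIF, measured 56.2, 28.3 and 27.9 FPKM. Its course was nearly that of Klf4: the ratio to P0 was 0.504 at P1 (interval 0.481 to 0.528) and 0.497 at P2 (interval 0.475 to 0.519). Gbx2, a homeobox factor that acts downstream of STAT3, measured 28.0, 18.1 and 14.3 FPKM and was lower in each later library. Its ratio to P0 was 0.647 at P1 (interval 0.583 to 0.717) and 0.513 at P2 (interval 0.462 to 0.569), and P2 over P1 was 0.793 (interval 0.703 to 0.895). Gbx2 overlaps the noncoding gene D130058E05Rik on the other strand, which had 3.93, 2.57 and 1.72 FPKM from 201, 102 and 85 reads. Whether the libraries keep strand is not stated in the labels, so reads of such a pair cannot be told apart. The 3 gene models that overlap Tfcp2l1 had at most 1 read in any library.

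Tbx3 and Zfp42 were low at P1 and nearer to P0 at P2. Tbx3, a T-box factor that supports self-renewal and can also drive extraembryonic endoderm, measured 54.8, 37.7 and 53.6 FPKM. Its ratio to P0 was 0.689 at P1 (interval 0.653 to 0.726) and 0.978 at P2 (interval 0.935 to 1.02), and P2 over P1 was 1.42 (interval 1.35 to 1.498). The antisense gene Tbx3os1 had 5, 7 and 12 reads. Zfp42, also called Rex1, a zinc finger gene used as a marker of the naive state, measured 205, 145 and 169.7 FPKM. Its ratio to P0 was 0.705 at P1 (interval 0.680 to 0.731) and 0.827 at P2 (interval 0.801 to 0.854), so P2 lay between the other libraries. Prdm14, which represses FGF receptor signalling and Dnmt3b, was the lowest member at 6.12, 5.46 and 6.30 FPKM from 364, 253 and 362 reads. Its intervals against P0, 0.758 to 1.05 at P1 and 0.888 to 1.20 at P2, both span 1, and changes smaller than these bounds were not detectable at this depth.

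**Figure D2:**
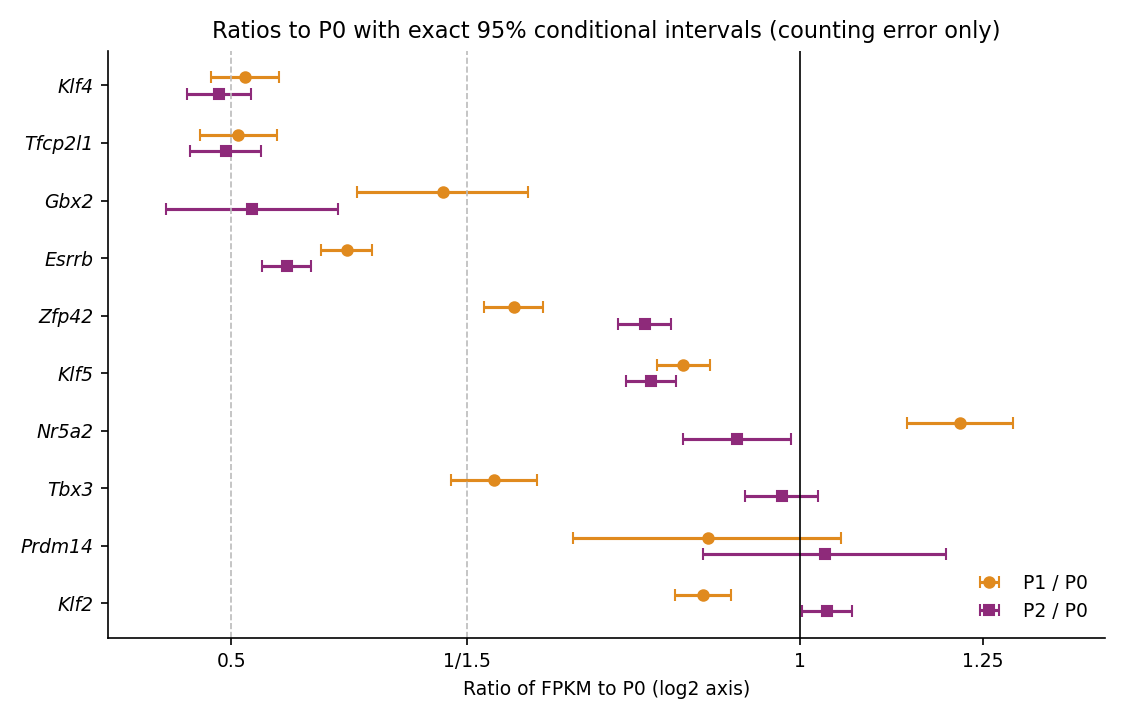
Ratio of FPKM at P1 (circles) and P2 (squares) to P0 for the 10 genes on a log2 axis, with exact 95% conditional intervals for counting error. The solid line marks no difference and the dashed lines ratios of 1/1.5 and 0.5, and at P2 a gap separates Klf4, Tfcp2l1, Gbx2 and Esrrb, at 0.493 to 0.535, from the other 6 genes, at 0.827 to 1.03.

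The order of the levels changed at the top and in the middle. At P0 it ran Klf4, Esrrb, Zfp42, Klf2, Klf5, Tfcp2l1, Tbx3, Nr5a2, Gbx2, Prdm14. At P2 it ran Klf2, Zfp42, Esrrb, Klf4, Klf5, Tbx3, Nr5a2, Tfcp2l1, Gbx2, Prdm14, and at P1 Nr5a2 stood above Tbx3. Tfcp2l1 and Tbx3 at P0, with a ratio of 1.03 (interval 0.985 to 1.07), were the 1 pair of neighbours in any library that did not differ beyond counting error. Klf4 ranked 519th of all gene IDs at P0, 1130th at P1 and 1199th at P2, while Klf2 ranked 642nd, 720th and 619th. Summed over the 10 genes, FPKM was 1147, 796 and 835 in the P0, P1 and P2 libraries, which puts P1 at 0.694 and P2 at 0.727 of P0. Of the summed difference of -313 FPKM between P2 and P0, Klf4 made up 37.1% and Esrrb 32.9%.

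For counts, a gene was called lower or higher by 1.5-fold or 2-fold on the log2(FPKM + 1) scale, among genes with at least 1 FPKM in 1 or both libraries. At P1, 4 of the 10 members were at least 1.5-fold below P0, against 2.39% of all 13288 genes compared. They were Klf4, Tfcp2l1, Esrrb and Gbx2, with differences of -0.97, -0.96, -0.79 and -0.60. The interval of the ratio to P0 spans 1/1.5 for Gbx2 (0.583 to 0.717) and for Tbx3 (0.653 to 0.726), which was not called. Counting error alone could thus move this count. None of the members was 1.5-fold higher, against 11.4% of all genes, and none was 2-fold lower or higher, against 0.549% and 4.12%. With median-of-ratios scaling 2 members were 2-fold lower, and with quantile normalization 1 was. At P2 the same 4 genes were at least 1.5-fold below P0, with differences of -1.02, -0.98, -0.90 and -0.92, against 4.31% of 13472 genes. None was 1.5-fold higher, against 15.6%. Klf4 alone passed 2-fold, where 1.16% of all genes were lower and 6.72% higher. With median-of-ratios scaling 2 members were 2-fold lower, and with quantile normalization 3 were. In FPKM itself Tfcp2l1 was 2.01-fold lower than at P0 too, and Klf4 2.03-fold. Both comparisons use the same P0 library, so a deviation of that library enters both.

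The other 6 genes differed from P0 by -0.53 (Tbx3) to 0.27 (Nr5a2) at P1 and by -0.27 (Zfp42) to 0.05 (Klf2) at P2. The median over the 10 genes was -0.51 at P1 and -0.27 at P2, where the median of all genes compared was 0.06 and 0.07. Of all genes compared, 0.602% had a lower difference than Klf4 at P1 and 1.05% at P2. For Gbx2 these shares were 2.19% and 1.403%, and for Tbx3 3.13% and 38.6%. Between P1 and P2 no member was 1.5-fold lower or higher, against 2.57% and 3.61% of 13585 genes, or 2-fold, against 0.883% and 0.78%. The member furthest above P1 at P2 was Tbx3 (0.49) and the furthest below was Nr5a2 (-0.38), with a median of -0.03 over the 10 genes and 0.02 over all genes.

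**Figure D3:**
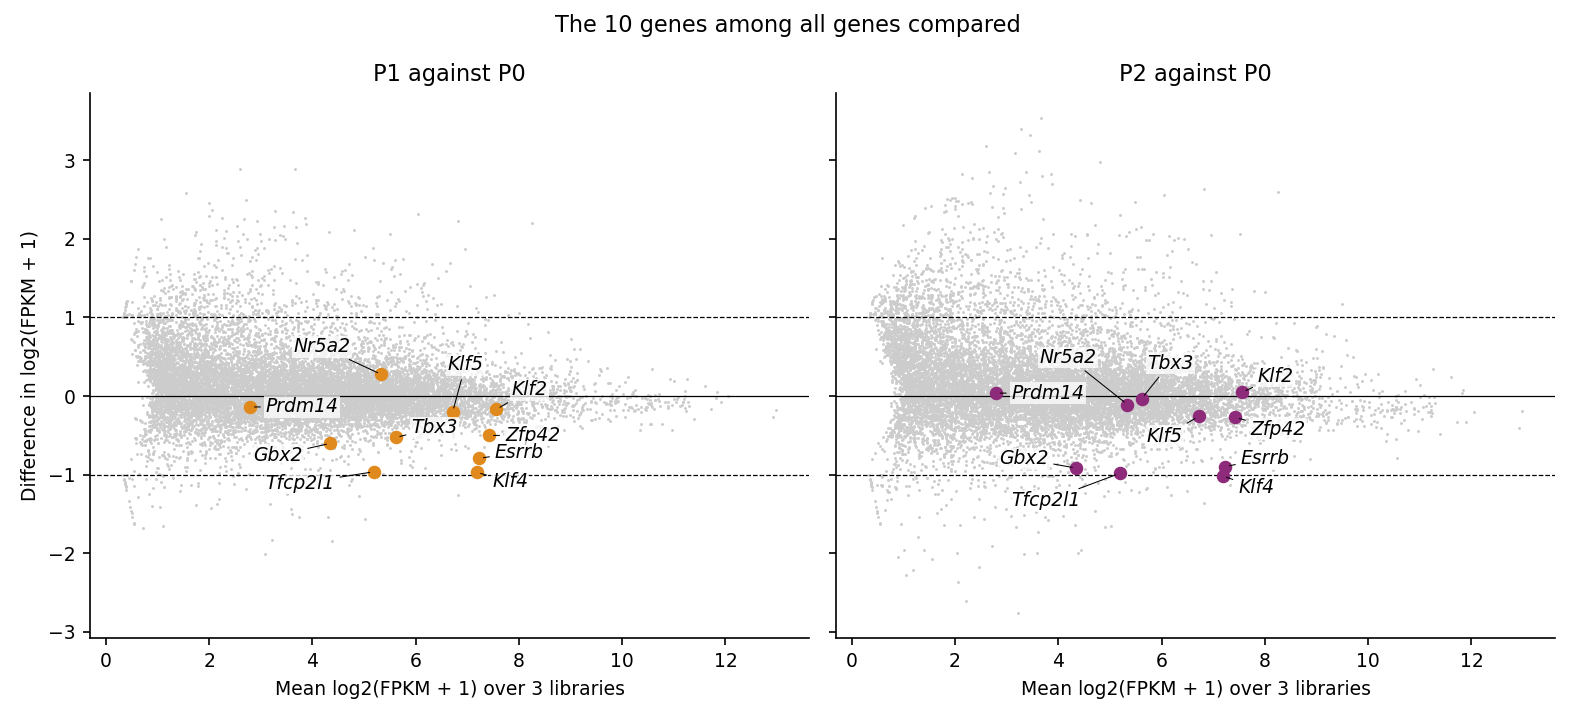
Difference in log2(FPKM + 1) from P0 (vertical axes) against the mean of log2(FPKM + 1) over the 3 libraries (horizontal axes), for P1 on the left and P2 on the right. Grey points are all genes compared, coloured points the 10 named genes and dashed lines 2-fold, and Klf4, Esrrb, Tfcp2l1 and Gbx2 lie along the lower edge of the grey cloud in both panels.

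Klf4, the member with the largest difference between P2 and P0, was compared with all 7135 protein-coding genes with a mean of at least 10 FPKM. Likeness was the distance in the pair of differences from P0 over the 3 libraries. The nearest was another member, Tfcp2l1, at a distance of 0.03. Then came Itga9, an integrin subunit gene with 22.8, 10.6 and 10.8 FPKM, at 0.07, and Gli2, a Hedgehog pathway factor gene with 43.8, 20.5 and 19.7 FPKM, at 0.13. Herpud1, an endoplasmic reticulum stress gene, followed at 0.15 with 23.9, 12.1 and 10.2 FPKM, and Tfeb, a factor for lysosomal genes, at 0.15 with 37.6, 20.3 and 19.6 FPKM. Such closeness between members was limited to Klf4 and Tfcp2l1. For every other member, genes outside the 10 lay nearer than the nearest member, from 17 genes for Esrrb to 3900 for Nr5a2. A pattern over 3 libraries holds only 2 differences, so closeness is a description.

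Signalling genes that feed the network lay on both sides of P0. Of 22 genes, all compared, 2 were at least 1.5-fold lower and 2 higher at P1, and 4 were lower and 3 higher at P2, with medians of 0.04 and 0.12. The shares over all genes were 2.39% lower and 11.4% higher at P1 and 4.31% and 15.6% at P2. The share of higher genes in this list at P2 is near that of all genes. The share of lower genes was larger than that of all genes at both passages, on 2 and 4 genes. Il6st, which encodes gp130, had 34.0, 19.6 and 16.7 FPKM, with a ratio to P0 of 0.577 at P1 (interval 0.535 to 0.621) and 0.492 at P2 (interval 0.457 to 0.529). The other 3 lower genes, named after their values were seen, were Lifr, Stat3 and the ERK1 gene Mapk3. Lifr had 18.9, 11.8 and 9.69 FPKM, Stat3 69.5, 54.5 and 43.4 and Mapk3 75.7, 63.6 and 47.2. Socs3, a STAT3 target that dampens the pathway, also named after its values were seen, had 104, 89.2 and 96.1 FPKM. Jak1, the kinase bound to gp130, named likewise, had 45.1, 48.5 and 50.9 FPKM, so the genes of the LIF receptor pathway did not all lie below P0. Higher at P2 were Id3, at 34.3, 85.3 and 139 FPKM, and Id1, at 65.9, 175 and 198 FPKM, both targets of BMP signalling. Fgfr2, an FGF receptor gene, was also higher, at 1.48, 2.60 and 4.90 FPKM.

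The rest of the naive and core network did not move one way. Of 20 other genes, 1 was at least 1.5-fold lower and 0 higher at P1, and 1 lower and 3 higher at P2, with medians of -0.14 and -0.06. At P2 these counts are near the 4.31% lower and 15.6% higher over all genes. At P1 the shares over all genes were 2.39% lower and 11.4% higher. Tcl1, named after its values were seen, had 28.5, 17.8 and 23.3 FPKM and was the 1 lower gene at P1. Nr0b1, which encodes the DAX1 partner of OCT4 and of NR5A2, had 87.2, 61.7 and 54.5 FPKM and was the 1 lower gene at P2. Fbxo15, Dppa3 and Pecam1 were the higher ones, and Fbxo15 had 37.7, 30.7 and 81.3 FPKM. Dppa3 had 12.3, 17.0 and 20.6 FPKM and Pecam1 21.5, 16.6 and 33.5. Of 19 genes that regulate or mark exit from the naive state, 1 was lower and 5 higher at P1, and 1 lower and 3 higher at P2, with medians of 0.06 and -0.05. The counts at P2 are again near the shares over all genes. At P1 the share of higher genes in this list was larger than the 11.4% over all genes. Otx2 and Lef1, named after their values were seen, were higher at P1 only. Otx2 had 8.73, 16.8 and 12.1 FPKM and Lef1 3.32, 5.76 and 3.16. Zic2 had 25.7, 8.84 and 5.71 FPKM, Pou3f1 12.8, 28.7 and 26.1 and Grhl2 14.5, 34.3 and 31.3. Fgf5 reached 2.18 and 2.22 FPKM at P1 and P2, from 4 reads at P0.

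**Figure D4:**
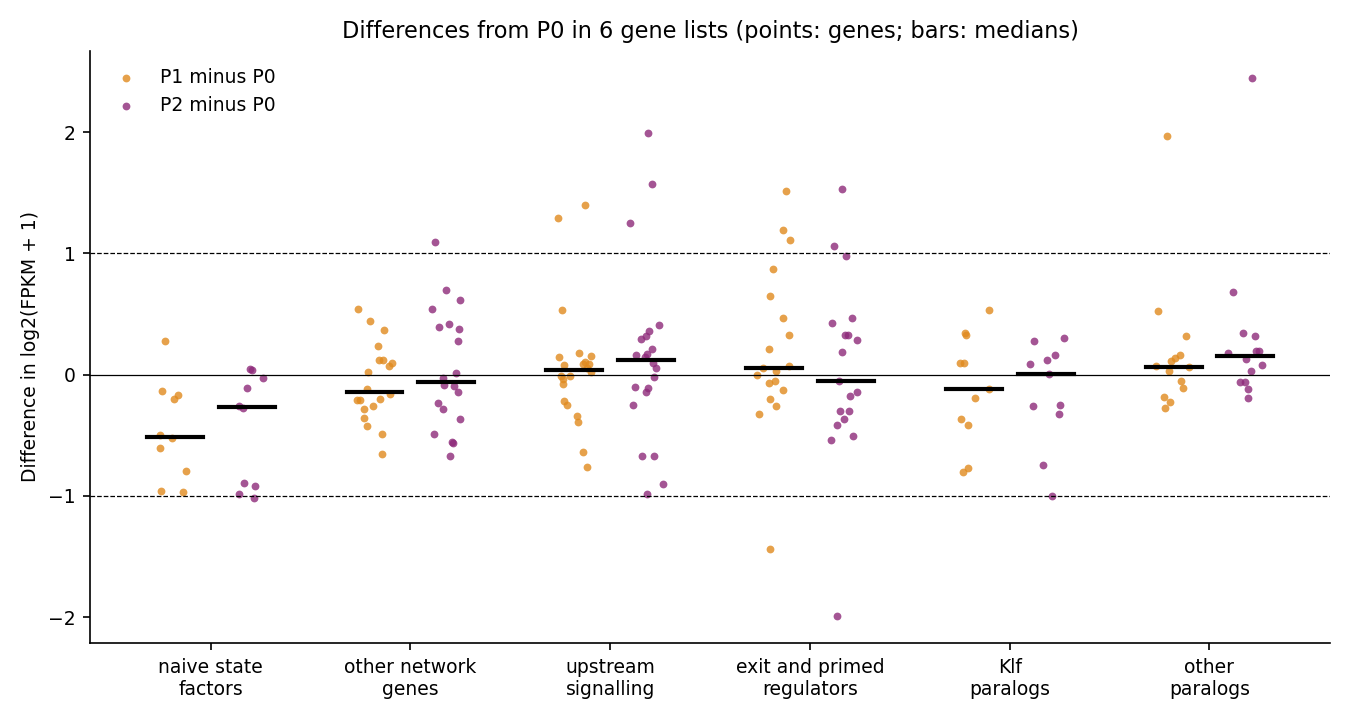
Difference in log2(FPKM + 1) from P0 for each gene compared at P1 (left of each pair) and P2 (right), in the 10 naive state factors and 5 other lists. Points are genes, black bars medians and dashed lines 2-fold, and the medians of the naive state factors, -0.51 and -0.27, are the lowest of the 6 lists at both passages.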

How the data were processed

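The authors deposited 1 table of FPKM values, made with TopHat2 2.0.9 and Bowtie2 2.0.6 on mm9, per the submitters' processing notes. Those notes as used here name no counting program, annotation or strand setting. Reads were recovered from the deposited FPKM: 1 read's worth gave each library's total, and lengths were searched that make all values whole (relative tolerance 1e-09). This succeeded for 26290 of 26291 IDs above 0. Symbols came from GENCODE M21 and promoters from RefSeq on GRCm38.p6, matched by symbol. Motifs were chosen after the sequences were seen.

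Calls used differences in log2(FPKM + 1), which understate the change of low genes, past 1.5-fold or 2-fold, among genes with at least 1 FPKM in 1 or both libraries. The calling step was tested on simulated data. The members, lists and thresholds were chosen with earlier results of these data known. Named were the members, up to 4 genes per list with the largest difference between P2 and P0, the highest marker of each cell type list, the 5 genes nearest to Klf4 and Pold3. Alternatives were another pseudocount, floors and scalings. Computations used Python 3.11.15 with pandas 2.3.3, numpy 2.4.6, matplotlib 3.10.9 and scipy 1.17.1.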

Additional observations from a re-analysis of the deposited data

How the results depend on the processing

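No paired analysis was possible because each passage has 1 library. The counts of members past 1.5-fold kept their values, and the median differences moved by less than counting error (-0.56 to -0.51 at P1 and -0.31 to -0.26 at P2 against P0), under all alternatives run (pseudocount 0.1, floor of FPKM 5, no floor, median-of-ratios scaling, rescaling each library to 1000000, quantile normalization and, added after seeing the data, the ratio of FPKM itself). The count of members at least 2-fold lower did not. At P2 against P0 it was 1 as reported, 2 with a pseudocount of 0.1, with median-of-ratios scaling and with the ratio itself, and 3 with quantile normalization. At P1 against P0 it was 0 as reported, 2 with median-of-ratios scaling and 1 with quantile normalization. Klf4, Tfcp2l1 and Gbx2 lie close to that threshold at P2, with differences of -1.06 to -1.01, -1.06 to -0.98 and -1.01 to -0.92 over the settings. Close to the 1.5-fold threshold at P1 were Gbx2, called in every setting at -0.68 to -0.60, and Tbx3, called in none at -0.58 to -0.53. Of 210 single differences recomputed, 204 stayed within counting error and 6 moved. The 204 include all those with a floor of FPKM 5 and with no floor, which were fixed in advance. Every member lay above 5 FPKM in each library (lowest 5.46, Prdm14 at P1), so these settings could change no count or difference of the members. The sign changed only for Klf2 and Prdm14 at P2 against P0, which no setting called and which ranged between -0.001 and 0.06 and between -0.12 and 0.05. Quantile normalization gave a median over all genes at P2 against P0 of -0.04, where it was 0.07 as reported. Over all genes, rises made up 88.2% of the genes past 2-fold at P1 and 85.3% at P2, and 74.9% and 70.5% with quantile normalization. The counts of all genes past 2-fold at P2 against P0 were 905 higher and 156 lower, 1569 and 286 with a pseudocount of 0.1, 512 and 87 with a floor of FPKM 5 and 621 and 260 with quantile normalization.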

Other observations

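The relatives of these factors were also compared. Of 14 other Klf genes, 11 reached 1 FPKM. At both later passages 2 of these were at least 1.5-fold below P0, against 2.39% of all genes at P1 and 4.31% at P2. None was 1.5-fold higher, against 11.4% and 15.6%, and the medians were -0.12 at P1 and 0.008 at P2. Klf13, a broadly expressed member, had 46.8, 26.4 and 22.9 FPKM at P0, P1 and P2, with a ratio to P0 of 0.565 at P1 and 0.489 at P2 (interval 0.454 to 0.526). Klf15 had 2.503, 1.06 and 1.09 FPKM from 128, 42 and 54 reads. Klf3 had 54.2, 40.3 and 43.2 FPKM and Klf9 49.5, 63.2 and 61.2, both within 1.5-fold of P0. Of 25 relatives of the other factors, 14 reached 1 FPKM. Tbx4, a T-box gene known for hindlimb development, had 0.581, 5.19 and 7.63 FPKM, and its ratio of P2 to P0 was 13.1 (interval 9.55 to 18.5), on 520 reads against 41. Prdm1 and Tfcp2 were within 1.5-fold of P0 in log2(FPKM + 1).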
